A study of Homo sapiens with 8 samples.

Results

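The chemokine genes CXCL8, CXCL1, CXCL2, CXCL3, CXCL5, CXCL6, CXCL16, CCL2 and CCL20 and the chemokine receptor gene CXCR4 were followed across 8 expression arrays of PANC1 cells, an established human pancreatic cancer line. Members were taken by name: each probe set annotated to exactly 1 of the 10 symbols was included, which gave 22 probe sets of the 44988 that carried a single symbol, or 10 of 18132 genes. CXCR4 had 4 probe sets, CXCL8 and CXCL5 had 3 each, CCL2 and CCL20 had 1 each and the other members had 2. The probe set with the highest mean over the 8 arrays stood for its gene and is called the main probe set. All 22 were tested, with no filter on signal.

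The arrays formed 4 groups of 2. Control cells were unirradiated and labelled wild type, sgBAP1 cells had been targeted by CRISPR/Cas9 at BAP1, a nuclear deubiquitinase and tumour suppressor, IR cells were wild type and had received 10 Gy of ionising radiation, and sgBAP1 + IR cells had both. RNA was collected 3 days after irradiation. The study describes PANC1 cells as already lacking a copy of BAP1, so wild type means not targeted. It also describes a single BAP1 guide, introduced by transfection with puromycin selection, and a non-targeting guide, but whether the control cells carried the latter is not in the labels. Loss of BAP1 and effects of selection or of the guide elsewhere in the genome cannot be told apart here, and the BAP1 transcript was not analysed here. No source says that arrays of the same group were separate cultures, so the p-values measure only the spread between these samples, which may be technical. In bulk RNA, fewer cells that express a gene and less RNA per cell cannot be told apart.

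Chemokines are small secreted proteins that guide leukocytes along gradients through G-protein-coupled receptors. CXCL8, CXCL1, CXCL2, CXCL3, CXCL5 and CXCL6 are the neutrophil attractants of the CXC family that act through CXCR2 (CXCL8 and CXCL6 also through CXCR1), CCL2 draws monocytes through CCR2, and CCL20 draws lymphocytes and dendritic cells through CCR6. CXCL16 is made as a membrane protein that binds CXCR6 and is shed by the proteases ADAM10 and ADAM17. CXCR4 is the receptor of CXCL12 and is widely studied in tumour cell migration and metastasis. Many inflammatory chemokine genes are classical targets of the transcription factor NF-kB, which AP-1 and C/EBP factors assist at CXCL8.

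RefSeq promoter windows (assembly GRCh38.p14) were matched for 8 of the 10 members, with 3 start sites for CXCR4. The 250 bases before each start were searched on both strands for GGAATTTCC, a 9-base NF-kB motif, for the more permissive 10-base NF-kB consensus, which overlaps the first motif where both occur, and for the AP-1 motif TGANTCA. GGAATTTCC stood before 6 of the 8 members, each a CXC chemokine gene on chromosome 4, against 0.502% of the 27305 genes with a window. The sequences below are shown because they carry the motif that 6 of the members share. For CXCL8 the whole stretch is given, with the AP-1 motif at -137 and GGAATTTCC at -91 in capitals, counted back from the start. For the other 5 genes the motif (capitals) is given with 25 bases on each side.
CXCL8, chr4:73740319-73740568, plus strand: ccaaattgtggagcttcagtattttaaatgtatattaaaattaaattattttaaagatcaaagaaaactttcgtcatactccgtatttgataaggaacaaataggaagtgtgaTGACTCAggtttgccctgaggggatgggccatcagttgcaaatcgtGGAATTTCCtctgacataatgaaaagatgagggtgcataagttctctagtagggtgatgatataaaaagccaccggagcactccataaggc
CXCL1, chr4:73869290-73869348, plus strand: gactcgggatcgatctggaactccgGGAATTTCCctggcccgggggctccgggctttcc
CXCL2, chr4:74099239-74099297, minus strand: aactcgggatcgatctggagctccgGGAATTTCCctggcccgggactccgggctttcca
CXCL3, chr4:74038734-74038792, minus strand: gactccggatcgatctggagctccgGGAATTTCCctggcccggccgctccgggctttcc
CXCL5, chr4:73998734-73998792, minus strand: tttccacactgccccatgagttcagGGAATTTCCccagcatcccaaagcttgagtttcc
CXCL6, chr4:73836564-73836622, plus strand: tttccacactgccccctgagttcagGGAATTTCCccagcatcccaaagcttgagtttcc

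Without gaps, 55 of the 59 bases of the CXCL1 and CXCL3 stretches were identical, as were 58 of 59 between CXCL5 and CXCL6. Stretches this alike are not independent, so the count of 6 members is not one of separate occurrences of the motif. CXCL8 shared 24 of 59 bases with CXCL1 and 18 with CXCL5. The permissive consensus overlapped the same site in CXCL1, CXCL2, CXCL3, CXCL5 and CXCL6, and it had no match in the CXCL8 window. It also had a match at -79 of CCL20 on the opposite strand, so that 6 members held it, against 6.28% of all genes with a window. TGANTCA was found before CXCL8 alone among the members, and before 8.06% of all genes with a window. None of the 3 motifs matched in any of the 3 CXCR4 windows. The stretches before CCL20 and the outermost CXCR4 start are shown to contrast a gene with a match (capitals) and a gene without one, both on chromosome 2.
CCL20, chr2:227813592-227813841, plus strand: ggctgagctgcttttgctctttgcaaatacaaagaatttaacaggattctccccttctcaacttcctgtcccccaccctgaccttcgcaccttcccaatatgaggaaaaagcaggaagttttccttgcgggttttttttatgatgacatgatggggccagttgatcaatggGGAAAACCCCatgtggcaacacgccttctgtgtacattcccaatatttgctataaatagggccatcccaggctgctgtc
CXCR4, chr2:136118150-136118399, minus strand: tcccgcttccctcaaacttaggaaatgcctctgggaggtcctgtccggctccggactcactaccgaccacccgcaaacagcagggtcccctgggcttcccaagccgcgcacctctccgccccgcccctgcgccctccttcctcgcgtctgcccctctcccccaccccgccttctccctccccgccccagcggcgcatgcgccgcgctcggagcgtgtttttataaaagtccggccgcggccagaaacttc
A match of letters is a description and is not evidence that a factor was bound in these cells.

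**Figure D1:**
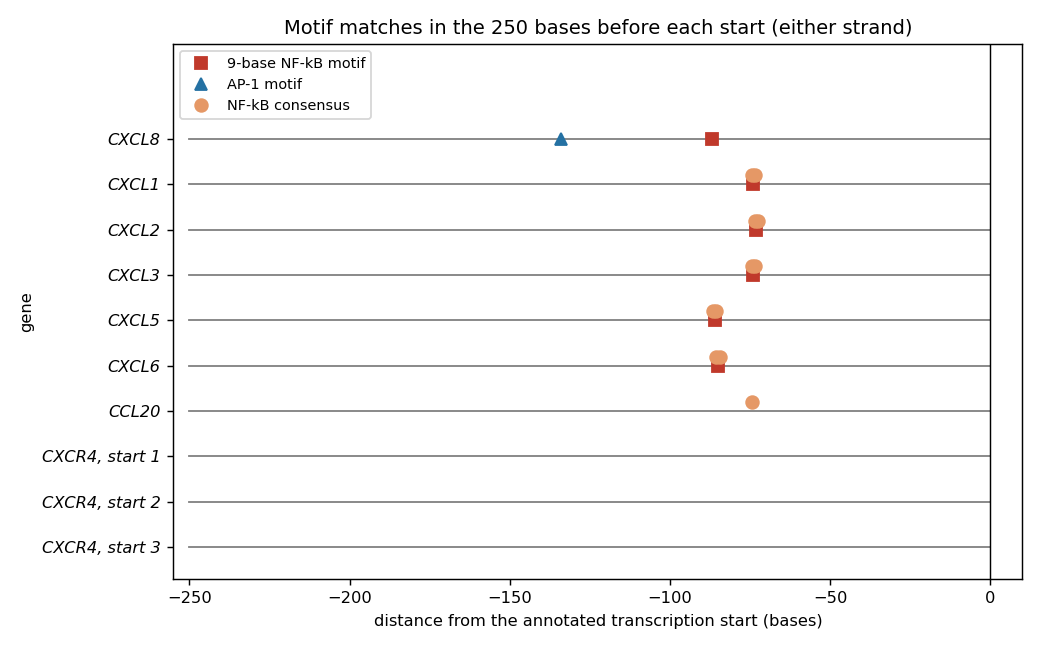
Position of motif matches on either strand in the 250 bases before each annotated start (x axis, bases from the start) for the 8 members with a promoter window, CXCR4 with its 3 starts. The 9-base NF-kB motif (squares) lies between -91 and -77 in 6 CXC genes, overlapped by the consensus (circles) in 5 of them, the AP-1 motif (triangle) is at -137 of CXCL8, and the CXCR4 lines are empty.

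Markers were checked against the label. Among 7 epithelial markers KRT8, KRT18, KRT19, EPCAM and SOX9 were above the array median on all 8 arrays, KRT7 on 6 and CDH1 on 4, and the mesenchymal markers VIM and ZEB1 were above it on all 8. CDH1, the E-cadherin gene, moved with the groups: its main probe set averaged 7.15 log2 in control, 4.78 with sgBAP1, 6.33 with IR and 5.10 with both, and was called lower in each comparison with control, while a dim second probe set (3.52 to 3.81) was not. Its part in the chemokine changes was not tested. Of the measured leukocyte markers, PTPRC, CD3E, MS4A1, CD14 and ITGAM lay below the median on all 8 arrays, and CSF3R lay above it on all 8. The endothelial markers PECAM1, VWF and CDH5 lay below it on all 8. Of the fibroblast markers, COL1A2, PDGFRB, DCN and LUM lay below it on all 8, and COL1A1 lay above it on all 8. Of the measured acinar markers, PRSS1 lay above it on all 8 and CPA1 below it. Correlations between arrays across probe sets were 0.998 to 0.9985 within groups and 0.9881 to 0.9952 between groups, and no array stood apart. The lower quartile of the arrays was 4.30 to 4.39 log2, and values near or below it are called dim here.

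The first comparison asked which members differed between sgBAP1 and control cells without irradiation. A gene was called when the limma moderated test gave a Benjamini-Hochberg adjusted p under 0.05 over all probe sets together with a fold over 1.5, and changes are log2 differences with their standard errors. Of the 10 genes, 5 were called higher (CXCL8, CCL20, CXCL1, CXCR4 and CCL2) and 0 lower, where 2.32% of all genes tested were called higher and 2.61% lower. At an unadjusted p under 0.05 and any fold, limma gave 8 higher and 0 lower. By probe sets, 12 of 22 were called higher. The median change of the 10 genes was 0.78, and the median over all genes was 0.00.

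CXCL8, which encodes the neutrophil attractant interleukin-8, stood at 7.12 and 7.03 log2 in the control arrays and at 9.38 and 9.40 in the sgBAP1 arrays. It was at 8.30 and 8.35 in the IR arrays and at 9.75 and 9.70 in the sgBAP1 + IR arrays. The 4 groups did not overlap, with control lowest, IR next, then sgBAP1, and the combination highest. The sgBAP1 difference was 2.32 ± 0.06, a 4.99-fold rise (95% CI 4.56 to 5.47, adjusted p = 9.27e-06). Both other CXCL8 probe sets were also called, at 2.08 ± 0.18 and 1.40 ± 0.20 (adjusted p = 0.000365 and 0.00249).

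CCL20, the ligand of CCR6, stood at 4.60 and 5.28 log2 in the control arrays and at 7.17 and 7.24 in the sgBAP1 arrays. It reached 6.62 and 6.41 with IR and 7.43 and 7.42 with both. The groups kept the order seen for CXCL8 and did not overlap, although the control arrays were the most spread of the 4 pairs. The sgBAP1 rise was 2.26 ± 0.19, or 4.81-fold (95% CI 3.51 to 6.58, adjusted p = 0.000323). The interval of this rise was wider than that of CXCL8, and the cause was not tested. Of the control arrays, the one at 4.60 lay nearer the lower quartile of the signal than the one at 5.28.

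CCL2, the monocyte attractant, stood at 7.59 and 7.48 log2 in control arrays and at 8.53 and 8.48 in sgBAP1 arrays. Its values were 7.96 and 7.90 with IR and 8.36 and 8.36 with both. Control was lowest and IR intermediate, and here the sgBAP1 arrays lay above those with the combination. The sgBAP1 rise was 0.97 ± 0.06, or 1.96-fold (95% CI 1.78 to 2.16, adjusted p = 0.000109).

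CXCL1, a growth-regulated neutrophil attractant, stood at 7.57 and 7.66 log2 in control arrays and at 9.12 and 9.19 in sgBAP1 arrays. It was at 7.22 and 7.10 with IR and at 8.16 and 8.25 with both. Its groups did not overlap either, but IR was the lowest of the 4 and sgBAP1 the highest. The sgBAP1 rise was 1.54 ± 0.07, or 2.91-fold (95% CI 2.61 to 3.25, adjusted p = 5.77e-05). The second CXCL1 probe set rose by 0.77 ± 0.07 (adjusted p = 0.000345), and a probe set annotated to CXCL1 and CXCL2 together and not counted as a member had a difference of 0.70 ± 0.09 (adjusted p = 0.00138). The main probe sets of CXCL1, CXCL2, CXCL8, CXCR4 and CXCL16 are of types whose probes can match other sequences. CXCL1, CXCL2 and CXCL3 are close paralogs, and signal shared among these 3 genes cannot be separated.

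CXCR4, the receptor of CXCL12, stood at 6.33 and 6.23 log2 in control arrays and at 7.66 and 7.55 in sgBAP1 arrays. It fell to 5.07 and 5.29 with IR and was at 6.08 and 6.29 with both. The sgBAP1 arrays were the highest and the IR arrays the lowest, while those with both overlapped the control arrays. The sgBAP1 rise was 1.33 ± 0.10, or 2.51-fold (95% CI 2.13 to 2.96, adjusted p = 0.000219). All 4 CXCR4 probe sets were called higher, by 1.09 to 1.74.

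**Figure D2:**
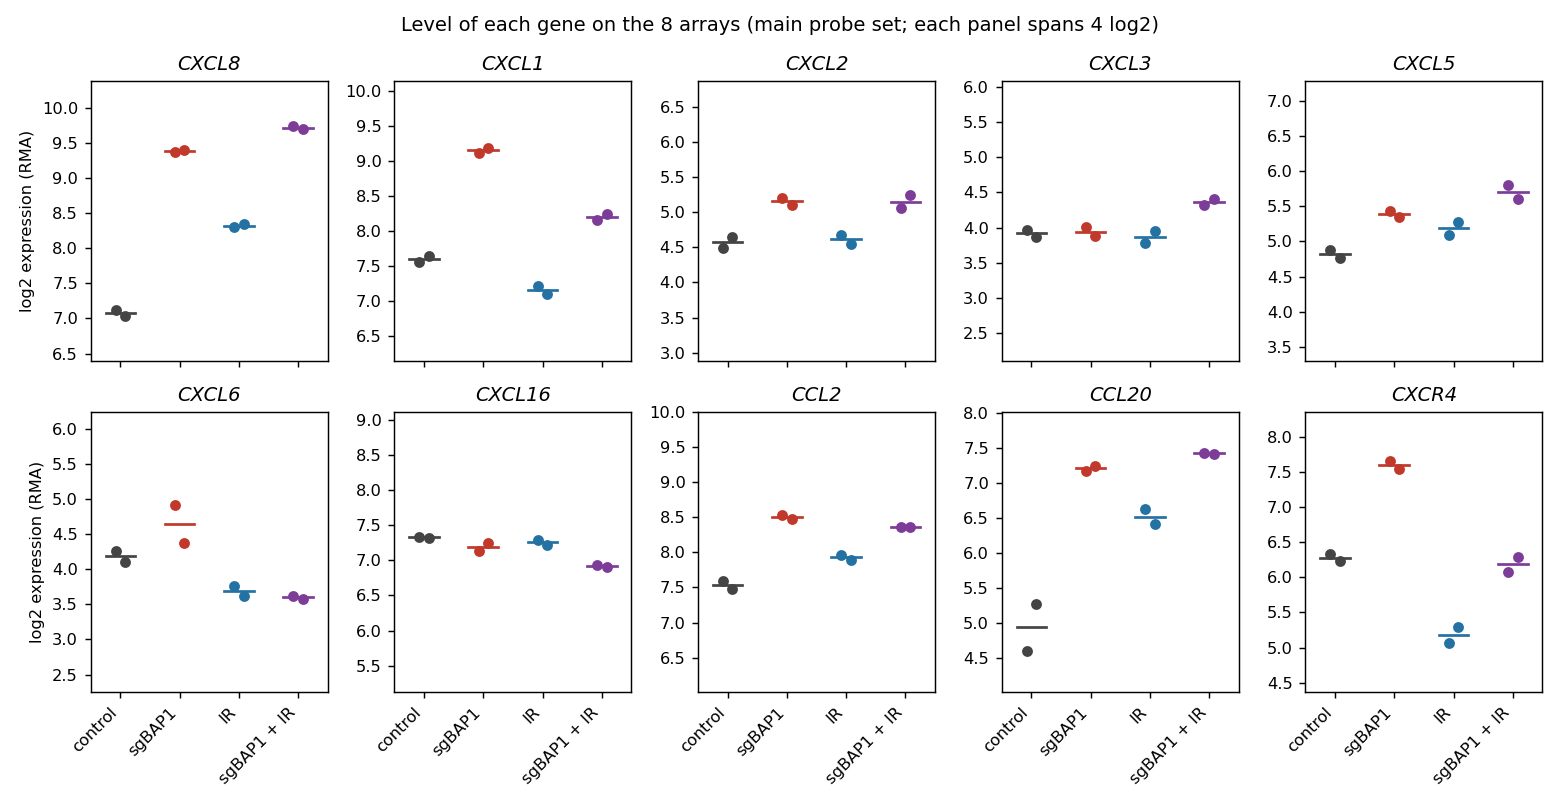
Log2 RMA expression (y axis) of the main probe set of each gene on each of the 8 arrays (points), with the mean of each group of 2 (line); every panel spans the same log2 range but starts at its own level. CXCL8, CCL20 and CCL2 are lowest in control cells and intermediate with IR, whereas CXCL1 and CXCR4 are lowest with IR and highest with sgBAP1.

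The other 5 members were not called in sgBAP1 cells. CXCL2, a paralog of CXCL1, had a difference of 0.58 ± 0.09 (1.498-fold, adjusted p = 0.00371) and CXCL5, a further CXCR2 ligand, of 0.57 ± 0.09 (1.49-fold, adjusted p = 0.00449), both just below the fold threshold. With single arrays left out, CXCL2 and CXCL5 were each called in 2 of the 8 fits (up to 0.66 and 0.63). A second CXCL5 probe set was called at 0.86 ± 0.17 (adjusted p = 0.0105), and the other one, at 0.55 ± 0.15, was not. A probe set annotated to CXCL5 and GLYR1 together, not counted as a member, had a difference of 0.18 ± 0.05. CXCL3 (0.02 ± 0.08, 95% CI -0.17 to 0.22) and the transmembrane chemokine CXCL16 (-0.14 ± 0.06, 95% CI -0.28 to 0.00) were not called. CXCL6, a neutrophil attractant close to CXCL5, was at 4.26 and 4.11 log2 in control arrays and at 4.92 and 4.38 in sgBAP1 arrays, a difference of 0.46 ± 0.16 (adjusted p = 0.0749). CXCL3 and CXCL6 were dim, with highest group means of 4.36 and 4.65 log2. Without sgBAP1 replicate 2, CXCL2 (0.63), CXCL5 and CXCL6 (0.73) were also called, and the count of members called higher was 8 in place of 5.

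The second comparison set IR cells against the same control cells, so it shares the control arrays with the comparisons before and after it. Of the 10 genes 2 were called higher, CXCL8 and CCL20, and 1 lower, CXCR4, where 2.20% of all genes were called higher and 1.38% lower. The median change of the members was -0.01 and that of all genes 0.00. CXCL8 rose by 1.25 ± 0.06, or 2.39-fold (95% CI 2.18 to 2.61, adjusted p = 3.61e-05). Its other probe sets had differences of 1.20 ± 0.18 (adjusted p = 0.00547) and 0.59 ± 0.20 (adjusted p = 0.089). CCL20 rose by 1.57 ± 0.19, or 2.98-fold (95% CI 2.17 to 4.08, adjusted p = 0.00221). CXCR4 went the other way and was 2.14-fold lower, a log2 change of -1.10 ± 0.10 (adjusted p = 7e-04), and all 4 of its probe sets were called lower, at -0.78 to -1.65.

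Both IR arrays lay below both control arrays for CXCL1, but its difference of -0.45 ± 0.07 (1.37-fold, adjusted p = 0.00489) was below the fold threshold, and its second probe set was at -0.22 ± 0.07 (adjusted p = 0.0629). CCL2 had a difference of 0.39 ± 0.06 (adjusted p = 0.00499) and CXCL5 of 0.37 ± 0.09 (adjusted p = 0.037), also below that threshold, whereas 1 of the other CXCL5 probe sets was called at 0.65 ± 0.17 (adjusted p = 0.0423). CXCL6 had a difference of -0.50 ± 0.16 (adjusted p = 0.0766), and its second probe set was at -0.09 ± 0.07. CXCL2 (0.04 ± 0.09), CXCL3 (-0.05 ± 0.08) and CXCL16 (-0.07 ± 0.06) had 95% intervals that included 0, within -0.25 and 0.26.

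The last comparison with control set sgBAP1 + IR cells against control cells. Here 5 genes were called higher, CXCL8, CCL20, CXCL5, CCL2 and CXCL1, and 1 lower, CXCL6, where 3.62% of all genes were called higher and 4.39% lower. The median change was 0.59 for the members and 0.04 for all genes. CXCL8 was 6.28-fold above control (2.65 ± 0.06, 95% CI of the fold 5.73 to 6.88, adjusted p = 2.09e-06). CCL20 was 5.59-fold above control (2.48 ± 0.19, 95% CI 4.08 to 7.65, adjusted p = 0.000143). CCL2 was 1.77-fold above it (0.82 ± 0.06, adjusted p = 0.000103).

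CXCL5 stood at 4.88 and 4.77 log2 in control arrays, 5.44 and 5.35 with sgBAP1, 5.10 and 5.28 with IR and 5.81 and 5.60 with both. Every group lay above control, and the combination was the highest without overlap. Its difference from control was 0.88 ± 0.09, or 1.85-fold (95% CI 1.58 to 2.15, adjusted p = 0.000509), and the other CXCL5 probe sets were called at 1.19 ± 0.17 and 1.02 ± 0.15. CXCL1 was 1.51-fold above control (0.59 ± 0.07, adjusted p = 0.000677). That call sat on the fold threshold and was lost without control replicate 1 or sgBAP1 + IR replicate 2 (0.55 in both), and its second probe set had a difference of 0.24 ± 0.07.

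CXCR4 in the combination was not called (-0.09 ± 0.10, 95% CI -0.33 to 0.15, adjusted p = 0.536), and its other 3 probe sets differed from control by -0.17 to 0.17, none of them called. CXCL6 stood at 3.62 and 3.58 log2 with both treatments, below the control arrays, a difference of -0.59 ± 0.16 (1.502-fold lower, adjusted p = 0.027). This call was lost without control replicate 1 or 2 and without sgBAP1 + IR replicate 1 or 2 (-0.51 to -0.66 over all arrays left out), and the second CXCL6 probe set had a difference of -0.04 ± 0.07. CXCL2 had a difference of 0.58 ± 0.09 (1.494-fold, adjusted p = 0.0028), and CXCL3 of 0.44 ± 0.08 (adjusted p = 0.00572), neither called. The second CXCL2 probe set was called higher (0.70 ± 0.15, adjusted p = 0.0111), and CXCL2 was called with the mean of its probe sets (0.64) and without control replicate 2 (0.66) or sgBAP1 + IR replicate 1 (0.68). The second CXCL3 probe set had a difference of 0.01 ± 0.05. CXCL16 was not called either, with a difference of -0.40 ± 0.06 (1.32-fold, adjusted p = 0.00204), while its second probe set was at 0.03 ± 0.08.

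**Figure D3:**
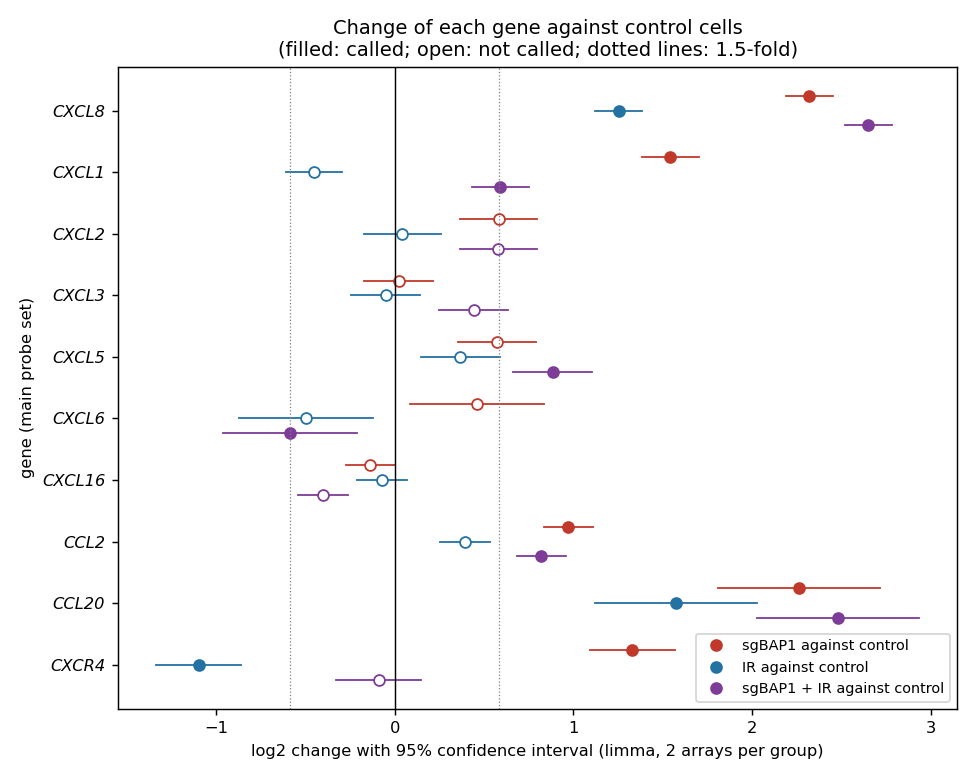
Log2 change against control (x axis, points) with 95% confidence intervals (lines) for the main probe set of each gene, in sgBAP1, IR and sgBAP1 + IR cells with 2 arrays per group. Filled points were called; CXCL8 and CCL20 are filled on the right in all 3 comparisons, and CXCR4 is at 1.33 with sgBAP1, -1.10 with IR and -0.09 with both.

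The effect of IR was then taken within sgBAP1 cells, on arrays that the IR comparison in control cells did not use. The spread was still estimated over all 8 arrays. No member was called higher (0 of 10, with 1.90% of all genes called higher), and 3 were called lower, CXCL1, CXCL6 and CXCR4, with 1.29% of all genes called lower. At an unadjusted p under 0.05 and any fold, limma gave 3 higher. CXCR4 was 2.67-fold lower after IR in these cells (-1.42 ± 0.10, adjusted p = 0.000294), with all 4 probe sets called at -0.92 to -1.91. CXCL1 was 1.93-fold lower (-0.95 ± 0.07, adjusted p = 0.000289), and its second probe set had a difference of -0.53 ± 0.07 (adjusted p = 0.00244). CXCL6 was 2.07-fold lower (-1.05 ± 0.16, adjusted p = 0.005), from sgBAP1 arrays that were 0.54 log2 apart to a mean of 3.60 log2, below the lower quartile of the signal. Its second probe set had a difference of -0.09 ± 0.07 (adjusted p = 0.426).

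CXCL8 had a difference of 0.33 ± 0.06 with IR in sgBAP1 cells (1.26-fold, adjusted p = 0.00749), below the fold threshold, and its other probe sets had 0.39 ± 0.18 and 0.14 ± 0.20. CCL20 had a difference of 0.22 ± 0.19 (95% CI -0.24 to 0.67) and CCL2 of -0.15 ± 0.06 (95% CI -0.29 to -0.01, adjusted p = 0.124). CXCL3 (0.42 ± 0.08) and CXCL16 (-0.27 ± 0.06) passed the adjusted p threshold (0.0131 and 0.0213) without the fold, and CXCL5 (0.31 ± 0.09) and CXCL2 (0.00 ± 0.09) passed neither. The second probe sets of CXCL3 (-0.13 ± 0.05) and CXCL16 (0.19 ± 0.08) had the opposite sign, and that of CXCL2 was at 0.42 ± 0.15, with none of these called.

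The interaction, the IR effect in sgBAP1 cells minus that in control cells, tested whether these effects differed. Among all genes 0.154% were called higher and 0.309% lower, and of the members 0 were called higher and 1, CXCL8, lower. At an unadjusted p under 0.05 and any fold, limma gave 1 higher, CXCL3, and 5 lower. The CXCL8 interaction was -0.92 ± 0.08 (adjusted p = 0.0183). All 3 CXCL8 probe sets had the same sign, at -0.92, -0.81 and -0.45, but the other 2 were not called, and the call was lost when any single array was left out (-0.88 to -0.97, adjusted p 0.0568 to 0.124). CCL2 had an interaction of -0.54 ± 0.08 (adjusted p = 0.0488), under the fold threshold. With any single array left out, its adjusted p was 0.0876 to 0.175 (-0.49 to -0.60), and over the scalings, the dim filter and the trended prior it was 0.000176 to 0.0516, the last after median centring. CCL20 had -1.36 ± 0.27, larger in size but with a wider error (adjusted p = 0.0819), and it was called when dim probe sets were left out (adjusted p = 0.0438).

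CXCL1 (-0.50 ± 0.10, adjusted p = 0.0739), CXCL6 (-0.55 ± 0.23), CXCR4 (-0.32 ± 0.14, 95% CI -0.66 to 0.02) and CXCL16 (-0.19 ± 0.08) had negative interactions that were not called. Those of CXCL2 (-0.05 ± 0.13, 95% CI -0.35 to 0.26) and CXCL5 (-0.05 ± 0.13, 95% CI -0.37 to 0.26) were close to 0, and that of CXCL3 was 0.47 ± 0.12 (adjusted p = 0.118). The second CXCL1 probe set kept its sign (-0.31 ± 0.09), and that of CXCL6 was at 0.005 ± 0.094. The second probe sets of CXCL2 (0.19 ± 0.22), CXCL3 (-0.08 ± 0.08) and CXCL16 (0.21 ± 0.11) had the opposite sign. None of these was called. The median interaction was -0.41 for the members and 0.02 for all genes. All 4 CXCR4 probe sets had negative interactions, -0.14 to -0.32, and none was called; that of -0.26 ± 0.11 had a 95% CI of -0.51 to -0.01 (adjusted p = 0.296).

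**Figure D4:**
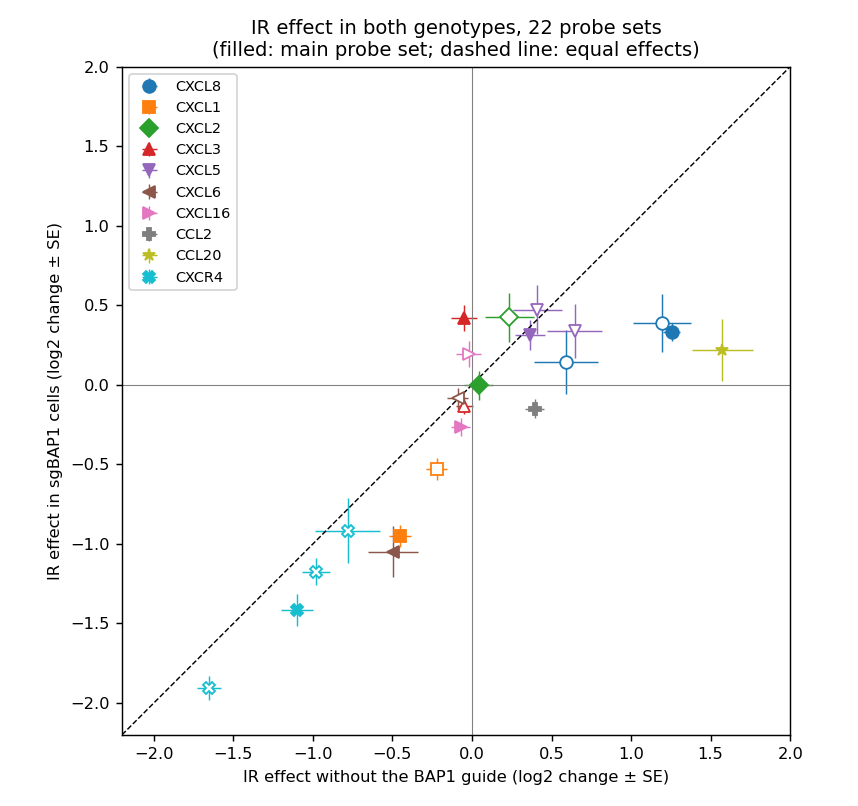
Log2 change with IR in cells without the BAP1 guide (x axis) and in sgBAP1 cells (y axis), with standard errors, for all 22 probe sets (filled: main probe set). The changes on each axis come from 4 arrays that the other does not use, while the standard errors come from a fit over all 8. The CXCL8 main probe set (1.25 and 0.33) and CCL20 (1.57 and 0.22) lie under the dashed line of equal effects. All 4 CXCR4 probe sets are negative on both axes.

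Between irradiated cells, sgBAP1 + IR against IR, 4 members were called higher (CXCL8, CXCL1, CXCR4 and CCL20) and 0 lower (1 lower by limma at an unadjusted p under 0.05 and any fold), where 0.993% of all genes were called higher and 1.13% lower. The median change was 0.53 for the members and 0.03 for all genes. CXCL8 was 2.63-fold higher (1.40 ± 0.06, adjusted p = 0.000307) and CXCL1 was 2.06-fold higher (1.04 ± 0.07, adjusted p = 0.00055). CXCR4 was 2.01-fold higher (1.01 ± 0.10, adjusted p = 0.00185), with all 4 probe sets called at 0.95 to 1.48. CCL20 was 1.88-fold higher (0.91 ± 0.19, adjusted p = 0.0216), a call that was lost when any 1 of the 4 irradiated arrays was left out (0.80 to 1.02, adjusted p up to 0.117). CCL2 (0.43 ± 0.06), CXCL2 (0.54 ± 0.09), CXCL3 (0.50 ± 0.08) and CXCL5 (0.52 ± 0.09) passed the adjusted p threshold but not the fold. CXCL16 also passed it in the other direction (-0.33 ± 0.06, adjusted p = 0.0122), and CXCL6 did not (-0.09 ± 0.16). Of their other probe sets, 1 of CXCL5 was called (0.62 ± 0.15, adjusted p = 0.037), while those of CXCL3 (0.06 ± 0.05) and CXCL16 (0.05 ± 0.08) were close to 0.

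The 6 CXC genes with GGAATTTCC lie near each other on chromosome 4, in the order CXCL8, CXCL6, CXCL1, CXCL5, CXCL3 and CXCL2 along GRCh38.p14, with the platelet chemokine genes PF4V1, PF4 and PPBP between them. Neighbours in this stretch had main probe sets of opposite sign with IR. CXCL8 rose by 1.25, while the next members along the chromosome, CXCL6 and CXCL1, had differences of -0.50 and -0.45 that were not called. CXCL6 was dim, and the second probe sets of CXCL6 and CXCL1 were at -0.09 ± 0.07 and -0.22 ± 0.07. PF4V1, PF4 and PPBP were not called in any comparison with control, and their changes lay between -0.06 and 0.08. Of the 3 genes beyond each end, picked by position, AFP, AFM, RASSF6, EPGN and EREG were not called, and MTHFD2L rose with IR (0.66 ± 0.08, adjusted p = 0.00176).

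Across the 8 arrays, the levels of CXCL8 correlated most among the members with CCL20 (r = 0.965), CCL2 (0.963) and CXCL5 (0.949), and those of CXCR4 with CXCL1 (0.937). These are descriptions over 4 groups of 2 arrays, so each rests on 4 group levels, and no p was computed. Among the 617 genes whose group means spanned at least 1 log2, the 3 with profiles most like CXCL8 were the Notch ligand JAG1 (r = 0.9987), the glutaminyl cyclase QPCT (0.9975) and the kinase SGK1 (0.9969). JAG1 averaged 9.55, 10.53, 10.08 and 10.68 log2 in control, sgBAP1, IR and combined cells. The 3 most like CXCR4 were SH2D5 (0.9938), the growth factor gene BMP6 (0.9898) and the ERBB ligand NRG1 (0.9881). NRG1 averaged 8.38, 9.60, 7.53 and 8.19 log2 in the same order.

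Genes that act around the members were counted from fixed lists. Over all genes, 2.32% were called higher and 2.61% lower with sgBAP1, 2.20% and 1.38% with IR, and 3.62% and 4.39% with both. In lists of this length, counts of 0 or 1 lie near those shares. Of 28 other chemokine genes measured, 1 was called with sgBAP1 (CCL5, 0.66 ± 0.11), 3 with IR (CCL5 at 1.60 ± 0.11, CX3CL1 at 0.82 ± 0.10 and CCL28 at -0.73 ± 0.15) and 2 with both (CCL5 at 2.28 ± 0.11 and CX3CL1 at 1.01 ± 0.10). CCL5, a T-cell attractant, and CX3CL1, a membrane-bound chemokine, rose with IR in sgBAP1 cells too (1.62 ± 0.11 and 1.17 ± 0.10), where no member was called higher. Of 20 measured receptors other than CXCR4, including CXCR1, CXCR2, CCR6 and ACKR3, 0 were called in any of the 6 comparisons, and at an unadjusted p under 0.05 and any fold limma gave 3 higher and 1 lower with sgBAP1, 2 and 1 with IR, and 5 and 0 with both. CXCL12, the ligand of CXCR4, was not called in any comparison, at 0.30 ± 0.10 with sgBAP1, 0.22 ± 0.10 with IR and 0.43 ± 0.10 with both, from a control mean of 4.33 log2. Of the 18 measured CXCR4 partners, RGS2, a brake on G-protein signalling, rose most (1.76 ± 0.05 with sgBAP1, 0.69 ± 0.05 with IR and 1.64 ± 0.05 with both) and had a called interaction (-0.82 ± 0.07, adjusted p = 0.019). The ubiquitin ligase ITCH (0.66 ± 0.06) and the hypoxia factor EPAS1 (0.61 ± 0.05) also rose with sgBAP1. With both, EPAS1 was at 0.78 ± 0.05 and the G-protein subunit GNAI1 at -0.75 ± 0.06. The sheddases ADAM10 and ADAM17 were not called.

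Of 20 measured NF-kB pathway genes, 5 were called higher with sgBAP1, 5 with IR and 7 with both, and 0 were called lower. The medians were 0.26, 0.17 and 0.22. By limma at an unadjusted p under 0.05 and any fold, 12 were higher and 1 lower with sgBAP1. These counts were 10 and 1 with IR, and 12 and 0 with both. NFKBIZ, a nuclear co-regulator induced by NF-kB, rose by 0.95 ± 0.07, 1.29 ± 0.07 and 2.02 ± 0.07 in these comparisons. The others called were the inhibitors NFKBIA, TNFAIP3, CYLD and NFKBIE, the adaptor TRAF1 and the subunit RELB. NFKBIA rose by 0.70 ± 0.05, 0.69 ± 0.05 and 0.96 ± 0.05, and TNFAIP3 by 0.88 ± 0.08, 0.75 ± 0.08 and 0.97 ± 0.08. The subunit genes RELA (0.27 ± 0.05) and NFKB1 (0.24 ± 0.05) were not called with sgBAP1. Of 13 AP-1 and C/EBP genes, JUN (0.84 ± 0.05), CEBPB (0.71 ± 0.06) and ATF3 (0.59 ± 0.07) were called higher with sgBAP1. Only CEBPD was called with IR (1.93 ± 0.07). There 6 were higher and 1 lower by limma at an unadjusted p under 0.05 and any fold, and 2 passed the adjusted p. With both, CEBPD (1.70 ± 0.07), FOSL2 (0.64 ± 0.07) and JUNB (0.63 ± 0.10) were called higher, and 9 of the 13 passed the adjusted p. JUN averaged 10.29 log2 in control and 10.81 with both, CEBPB 8.383 and 8.917, and ATF3 5.985 and 6.359, without a call there. Of 24 upstream cytokine and receptor genes, 6 were called higher with sgBAP1, 0 with IR and 7 with both, and 0 were called lower. With IR, 11 were higher and 3 lower by limma at an unadjusted p under 0.05 and any fold, and 9 passed the adjusted p. The genes called with sgBAP1 and with both were led by the TLR4 co-receptor LY96 (2.46 ± 0.05 and 2.06 ± 0.05) and the EGF receptor ligand HBEGF (2.09 ± 0.06 and 1.49 ± 0.06). Next in size were IL1R1 (0.89 ± 0.10) and IL6R (0.80 ± 0.05) with sgBAP1, and IRAK2 (0.98 ± 0.07) and TNFRSF1B (0.93 ± 0.12) with both. HBEGF had an interaction of -0.92 ± 0.08 (limma adjusted p = 0.0183). Of 8 regulators of chemokine mRNA decay, ZFP36L1 rose in all 3 comparisons with control (0.59 ± 0.06, 0.97 ± 0.06 and 1.21 ± 0.06), and ZFP36 (tristetraprolin) rose with both (0.59 ± 0.05). These lists were chosen with results of the same arrays known, and their counts stand beside the shares of all genes given above.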

How the data were processed

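RNA of 8 samples was hybridised to Affymetrix PrimeView 3' IVT arrays. The authors deposited log2 expression values, which they computed with the Robust Multi-array Average algorithm (RMA: background subtraction, quantile normalisation and summary of the probes of a probe set), which can compress changes of dim genes. Of 49395 probe sets, the 102 array controls were left out and 49293 were tested. A platform annotation gave 44988 of them 1 gene symbol, 1832 several and 2473 none; the array build was not given in the sources used here. The number of arrays limits the precision.

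Groups came from the labels. limma 3.58.1 in R 4.3.3 (lmFit and eBayes) was fitted with 4 group means over all arrays (4 residual and 3.22 prior degrees of freedom, median SD within groups 0.0787 log2), with Benjamini-Hochberg adjustment over all probe sets. A call needed an adjusted p under 0.05 and a fold over 1.5. The procedure was tested on simulated data. Named were all members, from each list up to 4 called genes with the largest change in each comparison with control, and the 3 genes most correlated with CXCL8 and with CXCR4; genes beside the chromosome 4 stretch, receptors and subunits not called, and GLYR1 were named in addition, some after their values were seen. Members and lists were chosen with earlier results of these data known. Alternatives were other thresholds, the methods' t-test, further scaling, a filter at 5 log2, a trended prior, fits of 2 groups, the mean of probe sets and leaving out each array. Promoter windows and gene order came from RefSeq tables of GRCh38.p14.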

Additional observations from a re-analysis of the deposited data

Results flagged for a closer look

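The effect of IR on CXCL8 differed between genotypes by the interaction test: its IR effect in sgBAP1 cells minus that in cells without the guide was -0.92 log2 (limma adjusted p = 0.0183), from rises of 0.33 and 1.25. For CCL2 the same difference was -0.54 log2 (limma adjusted p = 0.0488), from changes of -0.15 and 0.39, and it did not reach the fold threshold. With any single array left out, neither passed the adjusted p threshold (0.0568 to 0.124 for CXCL8 and 0.0876 to 0.175 for CCL2). The cause of either difference was not tested.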

How the results depend on the processing

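The main settings gave 22 calls of a member in a comparison. All 22 stood at an unadjusted p under 0.01, with a trended prior, and after further quantile normalisation of values that were already quantile normalised. After median centring of each array 21 stood. Leaving out the fold threshold cannot lose a call, so the 22 kept there are no check. Fits of only the 2 groups compared kept all 21 that they could test. The filter on dim probe sets removed CXCL3 and CXCL6 and kept the other 20 calls. The mean of all probe sets kept 18. The methods' t-test, which was not run for the interaction, kept 11 of 21 at its unadjusted threshold and 0 after adjustment. After adjustment it called few of all genes: 17 with sgBAP1, 0 with IR and 81 with both. For IR in sgBAP1 cells it called 1 gene, and for sgBAP1 in irradiated cells 0. The calls lost with the mean of probe sets were CXCL1 and CXCL6 with both treatments, CXCL6 for IR in sgBAP1 cells and the CXCL8 interaction (-0.73, adjusted p = 0.106).

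CXCL8 alone had a called interaction; the count of lower interactions was 2 at an unadjusted p, 2 without the fold threshold, 2 without dim probe sets, 2 with a trended prior and 0 with the mean of probe sets. Without the fold threshold, counts were 4 higher and 2 lower with IR, 2 lower with both, 2 higher for IR in sgBAP1 cells, and 8 higher and 1 lower for sgBAP1 in irradiated cells. The methods' t-test at an unadjusted p gave 1 higher and 0 lower with IR, 2 higher and 0 lower with both, and 2 higher for sgBAP1 in irradiated cells; after adjustment it gave 0 in every comparison it tested, sgBAP1 against control and IR in sgBAP1 cells included. Members lower with both numbered 0 without dim probe sets and 0 with the mean of probe sets. Over arrays left out in turn, members higher with sgBAP1 numbered 5 to 8, members higher with both 4 to 6, members lower with both 0 to 1 and lower interactions 0 to 0. In these fits a lone array is assumed to vary like the other groups.

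Signs turned only for values that were not called as reported. With the mean of probe sets, CXCL2 was at 0.21 for IR in sgBAP1 cells and at 0.072 for the interaction, and CXCL16 was at 0.01 for the interaction. With single arrays left out, CXCL2 ranged from -0.036 to 0.12 for IR, from -0.101 to 0.094 for IR in sgBAP1 cells and from -0.143 to 0.051 for the interaction. CXCL3 ranged from -0.043 to 0.087 with sgBAP1 and from -0.139 to 0.035 with IR, CXCL5 from -0.16 to 0.05 for the interaction, and CXCR4 from -0.196 to 0.014 with both. The cause was not tested.

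No paired analysis was possible because no number in the labels links samples of different groups. With 2 arrays per group, the control arrays serve 3 comparisons at once, CXCL3 and CXCL6 lay near the lower quartile of the signal, and protein or secretion was not measured.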
